A study of Mus musculus with 8 samples.

Results

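Voltage-gated Kv potassium channels were followed through 8 genes, listed by name and not by a measured value: Kcna1, Kcna2, Kcnc1, Kcnc4, Kcnd2, Kcnd3 and Kcnh2, which encode pore-forming subunits, and Kcnab2, which encodes an auxiliary subunit. They are 8 of the 19224 genes measured in 1303 single neurons of the mouse stellate ganglion, a sympathetic ganglion that supplies the heart and the forelimbs. The mice were males of the strain C57BL6/J, 8 to 10 weeks of age, of 1 condition, and all had received an adeno-associated virus with GFP in the heart and one with tdTomato in the front paws. Left and right ganglia were collected, and the paper states that 16 of them were combined for digestion. It does not state how many digestions were run, while the samples carry the names of single mice. Each neuron carried one of 8 subtype names given by the study: 5 noradrenergic (NA1a, NA1b, NA1c, NA2, NA3), Ach1, Ach2 and Glut.

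Kv channels open when the membrane is depolarized and let potassium leave the cell, which ends the action potential and sets how fast and how often a neuron can fire. The pore-forming subunits assemble as tetramers. Kv1 channels (the Kcna genes) open near threshold and restrain firing from the axon, Kv3 channels (Kcnc) repolarize quickly and permit fast firing, and Kv4 channels (Kcnd) carry the transient A-type current of dendrites and soma. Kcnh2 encodes the ERG channel, best known for repolarizing the heart, and Kcnab2 encodes Kvβ2, a cytoplasmic partner that binds Kv1 subunits and aids their transport.

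The pore-forming members share 1 short stretch of coding sequence, the codons of the potassium selectivity filter, which is shown because it is the common feature of the family that the gene names do not spell out. Below, 42 coding bases of each gene (GENCODE M21 transcripts, build GRCm38) are written 5′ to 3′ on the coding strand, and the capitals mark the last 4 codons of the filter.
Kcna1: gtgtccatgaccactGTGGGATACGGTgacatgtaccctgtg
Kcna2: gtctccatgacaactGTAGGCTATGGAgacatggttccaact
Kcnc1: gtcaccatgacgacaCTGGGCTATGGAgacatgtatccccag
Kcnc4: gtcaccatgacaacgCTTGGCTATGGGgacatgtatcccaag
Kcnd2: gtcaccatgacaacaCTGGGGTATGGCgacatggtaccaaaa
Kcnd3: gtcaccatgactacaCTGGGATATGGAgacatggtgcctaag
Kcnh2: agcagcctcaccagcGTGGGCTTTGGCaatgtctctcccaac
The search was for the codons ACN, NTN, GGN and TAN in a row, followed by a codon that begins with GG (N is any base), in frame and on the coding strand only. This run occurred once in each of the 6 Kcna, Kcnc and Kcnd genes and in 69 of 21782 coding sequences of the annotation (0.317%). It occurred in neither Kcnh2 nor Kcnab2. In Kcnh2 the stretch was found by the looser run of GTN, GGN and TNN followed by GG, which can overlap the first and was present in frame in 2.47% of coding sequences, and Kcnab2, which forms no pore, had neither. Kcnc1 and Kcnc4 shared 37 of the 42 bases, Kcnd2 and Kcnd3 36, and Kcna1 and Kcna2 29. Kcnh2 shared between 19 (with Kcna1) and 24 (with Kcnc1 and with Kcnc4).

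In GRCm38, Kcna1 lies on chromosome 6 from 126640397 to 126646384 on the minus strand and Kcna2 on chromosome 3 from 107101146 to 107115005 on the plus strand, each with its whole coding sequence in 1 exon. The stretches printed for them are exonic, at chr6:126642213-126642254 and chr3:107105212-107105253. Kcnc4 lies nearby on chromosome 3 from 107438303 to 107459552 on the minus strand, with 4 coding exons. Kcnab2 is on chromosome 4 (152390742 to 152477871, minus strand), Kcnc1 on chromosome 7 (46396497 to 46438704, plus strand) and Kcnh2 on chromosome 5 (24319589 to 24351604, minus strand). Kcnd2 (chromosome 6, 21215503 to 21729805) and Kcnd3 (chromosome 3, 105452330 to 105674002) are on the plus strand, and the stretch printed for each of them crosses a splice junction. Gene models on the same strand overlap Kcnab2 (Gm16334), Kcnd2 (5330437M03Rik, Gm42583 and Gm42584) and Kcnd3 (Gm43847), and reads in the shared parts cannot be assigned with certainty.

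Each captured RNA molecule was counted once through its unique molecular identifier (UMI), and levels are given as UMIs per 10000 UMIs of a neuron, averaged over the neurons of a mouse. 5 of the 8 mouse names, with 1002 neurons, could each be matched to 1 sample, and these are mice 1 to 5, with 916296 to 1196621 UMIs per mouse. The paper lists these 5 mice in 1 batch and its other mice in another, so the tests over mice rest on 1 batch. The 301 neurons of the other names entered only values pooled over neurons, which can mix batches. Unless stated, a level of a mouse rests on at least 10 neurons, which left 5 mice for NA1a, NA1b, NA1c and NA2, 3 mice for NA3 (mice 2, 4 and 5), 2 for Ach2, 1 for Ach1 and none for Glut. In the 5 matched libraries 21 cell barcodes occurred in 2 to 5 libraries each, with the same subtype in all their libraries for 20 of the 21. They accounted for 73 neurons, of which 55 were NA2 (36.7% of that subtype), 15 Ach2 (32.6%) and 3 Glut (17.6%), and results that rest on these subtypes are given with and without them. The subtypes were named by the study from these same transcriptomes, so tests between subtypes give the spread of a difference over mice and do not bear on the grouping itself.

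The members were sparse. Over all neurons Kcnc4 gave 880 UMIs, Kcnab2 317, Kcna2 241, Kcna1 199, Kcnh2 178, Kcnc1 91, Kcnd2 80 and Kcnd3 35. Kcnc4 was detected, with at least 1 UMI, in 42.4% of the 1303 neurons (95% Clopper-Pearson interval 39.7 to 45.1%) and Kcnd3 in 2.53% (1.75 to 3.54%). These intervals cover counting error only. In the plot of levels by subtype and mouse, Kcna1 and Kcna2 stood out in NA3, and no other member had a noradrenergic subtype in which every mouse lay above all mice of the 4 others. The share of all genes that separated in this way was not counted, here or where a lack of overlap is given below. In single pairs 7.29% (against NA1a) to 21.9% (against NA2) of all tested genes were called higher in NA3.

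**Figure D1:**
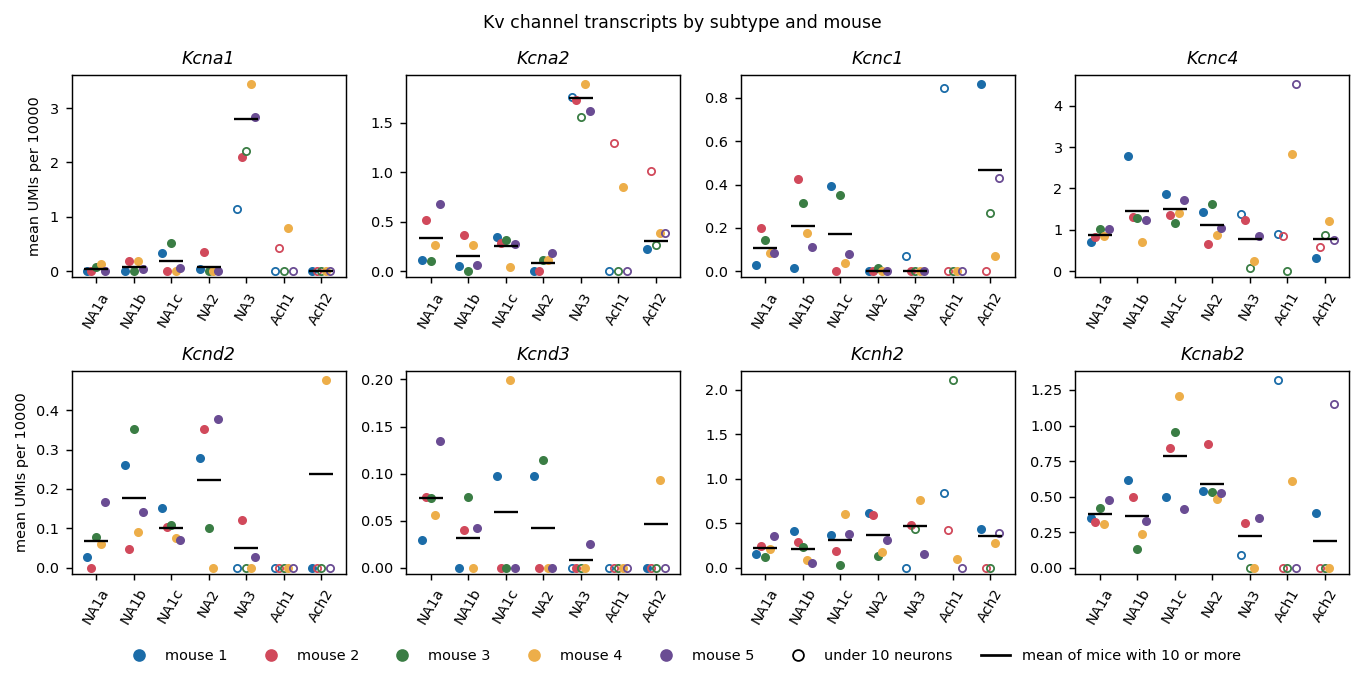
Mean level (UMIs per 10000) of the 8 members in 7 subtypes, 1 panel a gene with its own axis from 0. Points are mice (open where a mouse had fewer than 10 neurons of the subtype) and bars are means over the mice with 10 or more. Kcna1 and Kcna2 in NA3 lie above all mice of NA1a, NA1b, NA1c and NA2, while the levels of Kcnc4 overlap between subtypes.

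Kcna1 encodes Kv1.1, a subunit of low-threshold axonal channels. Its level in NA3 was 2.1 in mouse 2, 3.44 in mouse 4 and 2.84 in mouse 5, and the mice with fewer NA3 neurons had 1.14 (mouse 1, 9 neurons) and 2.21 (mouse 3, 7 neurons). In NA1a the 5 mice had 0, 0, 0.0769, 0.130 and 0, and in NA1b they had 0, 0.183, 0, 0.188 and 0.0483. In NA1c they had 0.329, 0, 0.528, 0 and 0.0505, and in NA2 0.0424, 0.353, 0.0133, 0 and 0. Every NA3 value, including those of the 2 mice with few neurons, was above every value of the other noradrenergic subtypes, and the groups did not overlap.

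The mean of Kcna1 was 2.80 ± 0.672 UMIs per 10000 in NA3 (SD, n = 3) against means of 0.0414 ± 0.0597 for NA1a, 0.0840 ± 0.0950 for NA1b, 0.181 ± 0.237 for NA1c and 0.0817 ± 0.153 for NA2 (5 mice each). Without the shared barcodes NA2 was at 0.0333 ± 0.0549 (n = 4). In a limma fit over 6185 genes on log2 of the level plus 0.1, with the mouse as a block, NA3 was higher than NA1a by 4.49 ± 0.562 (log2 difference ± SE, Benjamini-Hochberg adjusted p = 6.55e-08) and than NA1c, the nearest subtype, by 3.82 ± 0.562 (adjusted p = 1.81e-06). Against NA1b and NA2 the differences were 4.17 and 4.32. Kcna1 entered this fit only with its NA3 levels counted. In a limma fit with no filter on low levels, over 16854 genes, the adjusted p was 6.36e-05 against NA1a and 0.000414 against NA1c. The difference had the same direction in 3 of 3 mice in each pair. Since many levels outside NA3 were at or near 0, the fold depends on the pseudocount, and with a pseudocount of 1 NA3 minus NA1a was 1.87 ± 0.140. None of the 6 pairs among NA1a, NA1b, NA1c and NA2 passed for Kcna1, and the order of its levels among those 4 is within their spread.

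NA3 held 147 of the 199 Kcna1 UMIs (73.9%) in 99 of the 1303 neurons. A UMI of Kcna1 was found in 60.6% of NA3 neurons (interval 50.3 to 70.3%), in 1.27% of NA1a (0.346 to 3.21%), 3.54% of NA1b, 2.51% of NA1c and 1.71% of NA2. Pooled over all names, NA3 and NA1a had like median depths, 6773 and 6524 UMIs per neuron. In single mice the depths of NA3 and NA1a differed. They were 14025 and 9470 in mouse 2, 4209 and 8678 in mouse 4, and 4711 and 8122 in mouse 5. With every neuron thinned to 2000 UMIs NA3 had a mean share of 28.7% ± 6.97 over 3 mice, and NA1a one of 0.900% ± 1.24 over 5. In Ach1 the thinned share was 3.45% in its 1 mouse (mouse 4), and 10.9% of all 64 Ach1 neurons had a UMI before thinning. In the names not matched to a mouse, the 7 NA3 neurons averaged 1.82 UMIs per 10000, on 5 UMIs.

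Kcna2 encodes Kv1.2, which assembles with Kv1.1. Its NA3 level was 1.73 in mouse 2, 1.89 in mouse 4 and 1.61 in mouse 5, with 1.75 and 1.56 in mice 1 and 3, which had few NA3 neurons. In NA1a the mice had 0.117, 0.512, 0.101, 0.263 and 0.674, and in NA1b 0.0558, 0.363, 0, 0.267 and 0.0614. In NA1c they had 0.344, 0.288, 0.316, 0.0478 and 0.274, and in NA2 0, 0, 0.112, 0.113 and 0.182. NA3 again lay above all other values without overlap, while NA1a, NA1b, NA1c and NA2 overlapped one another.

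On average Kcna2 was at 1.74 ± 0.139 UMIs per 10000 in NA3 (SD, n = 3). NA1a averaged 0.333 ± 0.252, NA1b 0.149 ± 0.157, NA1c 0.254 ± 0.118 and NA2 0.0813 ± 0.0795 (n = 5 each). The log2 difference of NA3 was 2.05 ± 0.515 from NA1a (limma, adjusted p = 0.00342), 2.88 from NA1b, 2.24 from NA1c and 3.23 from NA2, in the same direction in 3 of 3 mice in each pair. Without mouse 4 it was 1.86 from NA1a (adjusted p = 0.0364) and 1.77 from NA1c (adjusted p = 0.0362). Kcna2 also entered the fit only with its NA3 levels counted. With no filter on low levels the adjusted p (limma) was 0.0180 against NA1a and 0.00866 against NA1c. A UMI of Kcna2 was present in 61.6% of NA3 neurons (51.3 to 71.2%), 11.7% of NA1a, 6.75% of NA1b, 6.69% of NA1c and 2.86% of NA2. Thinned to 2000 UMIs, the share was 32.4% ± 6.95 in NA3 and 3.63% ± 3.37 in NA1a. In Ach1 the thinned share was 24.1% in its 1 mouse (mouse 4), and in Ach2 it was 6.25% ± 8.84 over 2 mice. Before thinning, Kcna2 was found in 18.8% of Ach1 (10.1 to 30.5%) and 17.7% of Ach2 neurons (9.20 to 29.5%). Among the 31 matched Ach2 neurons with unshared barcodes the share was 25.8%. The 7 NA3 neurons of the unmatched names averaged 4.30 UMIs per 10000, on 8 UMIs.

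Kcna2 was also lower in NA2 than in NA1a, by a log2 difference of -1.18 ± 0.433 (adjusted p = 0.0228), and than in NA1c, by -0.99 ± 0.433 (adjusted p = 0.0455), each in 4 of 5 mice. These 2 calls did not hold without the barcodes found in several libraries, where the differences were -0.95 (adjusted p = 0.0925) and -0.77 (adjusted p = 0.153). They were also lost when profiles were centred on the median gene. NA2 had 7 UMIs of Kcna2 in 150 matched neurons.

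Some neurons had UMIs of both Kv1 transcripts. Of the 99 NA3 neurons 48 had UMIs of both, 12 of Kcna1 alone, 13 of Kcna2 alone and 26 of neither. Of the 1204 other neurons 8 had both, 25 Kcna1 alone, 98 Kcna2 alone and 1073 neither. These are counts over neurons of all mice, which are not replicates. They were not brought to equal depth, and the overlap expected from the single shares was not computed. In NA3, Kcna1 was found in 82.6%, 42.9% and 48.7% of neurons of mice 2, 4 and 5, and Kcna2 in 91.3%, 50% and 46.2%. Median depths of these NA3 neurons were 14025, 4209 and 4711 UMIs. Among the 25 neurons with a reporter transcript, 3 had a UMI of Kcna1, and all 3 of these were NA3. Kcna2 was found in 7 of the 25, of which 4 were NA3, and Kcnc4 in 10, of which 3 were NA3.

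**Figure D2:**
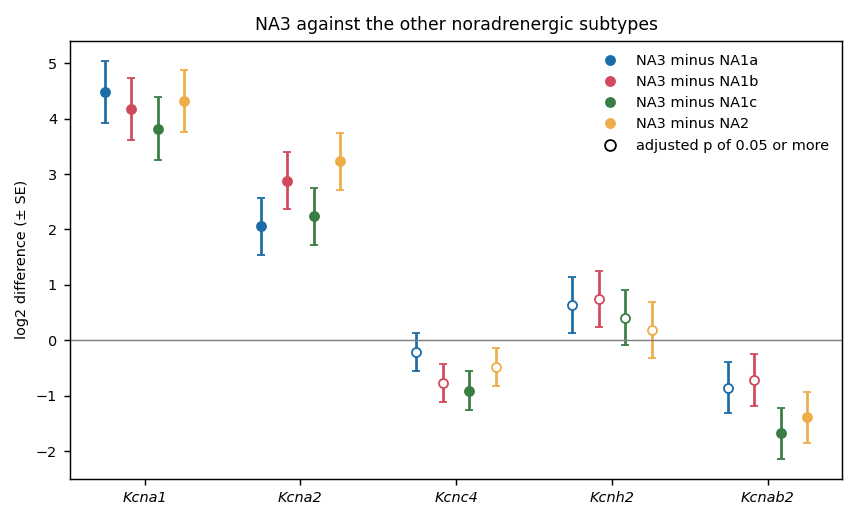
Log2 difference of NA3 from each of NA1a, NA1b, NA1c and NA2, with its SE, for the 5 members that passed the filter on low levels. Filled points passed an adjusted p of 0.05 and open points did not. Kcna1 lies between 3.82 and 4.49 and Kcna2 between 2.05 and 3.23, while Kcnc4 and Kcnab2 lie below 0 in all 4 pairs.

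Satellite glia transcripts were also high in NA3. Satellite glia wrap the cell bodies of ganglion neurons, and the sum of 10 of their markers (among them Fabp7, Apoe, Sparc, Gpm6b, Sox10, Kcnj10, Cdh19, Sox2 and S100b) was 191 to 351 UMIs per 10000 in NA3 (3 mice), 117 in Ach1 (mouse 4), 6.35 to 8.41 in NA1a, 3.17 to 21.4 in NA1b, 7.48 to 24.3 in NA1c and 3.55 to 9.75 in NA2. All 10 were detected in NA3, the 9 that could be tested were higher in NA3 than in NA1a, and in NA2 only Kcnj10 was at 0. The sum of 6 Schwann cell markers was 9.99 to 14.8 in NA3 and 1.86 to 2.69 in NA1a, with Cldn19 at 0 in NA3. The sum of 6 fibroblast markers was 11.7 to 31.3 in NA3, 0.712 to 1.29 in NA1a and 38.7 in Ach1. A list of 11 sympathetic neuron genes summed to 63.6 to 72.4 in NA3 against 131 to 149 in NA1a, and 10 of the 11 were lower. Vim, the marker the study stained for NA3, averaged 24.9 in NA3, 13.2 in Ach1 and 0.972 in NA1a.

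When the NA3 neurons of each mouse were divided at the mouse's own median glial sum, Kcna1 was at 1.83 below and 2.40 above in mouse 2, at 1.43 and 5.46 in mouse 4, and at 4.21 and 1.40 in mouse 5. Kcna2 was at 1.5 and 1.97, at 0.871 and 2.91, and at 1.29 and 1.95 in the same mice. Kcna2 was higher above the median in all 3 of these mice, and Kcna1 in mice 2 and 4 but not in mouse 5. Between mice 4, 5 and 2, whose NA3 glial sums were 191, 236 and 351, Kcna1 was at 3.44, 2.84 and 2.1. Kcna2 was at 1.89, 1.61 and 1.73 in the same order. Mice 1 and 3, with few NA3 neurons, had sums of 265 and 416, Kcna1 at 1.14 and 2.2, and Kcna2 at 1.75 and 1.56. The neurons at or below the median still had mean glial sums of 33 to 248 in the 4 mice with at least 5 of them, above those of NA1a. With these NA3 neurons alone, NA3 minus NA1a was 3.74 ± 0.579 for Kcna1 (adjusted p = 8.53e-06) and 1.80 ± 0.502 for Kcna2 (adjusted p = 0.0110).

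Outside NA3 both levels were higher where the glial sum was higher. None of 214 neurons with a sum of 0 had a UMI of Kcna1, against 11 of 621 with a sum up to 10, 10 of 278 with a sum of 10 to 40 and 12 of 91 above 40. For Kcna2 the counts were 11, 45, 26 and 24, which is 5.14%, 7.25%, 9.35% and 26.4% of the same neurons. Of the 91 neurons with the highest sums 58 were Ach1. The other 33 averaged 0.610 UMIs per 10000 of Kcna1 and 1.10 of Kcna2. Median depth differed between these classes, from 5866 UMIs in the class up to 10 to 2149 above 40. The part of satellite glia transcripts in the NA3 result was not tested.

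**Figure D3:**
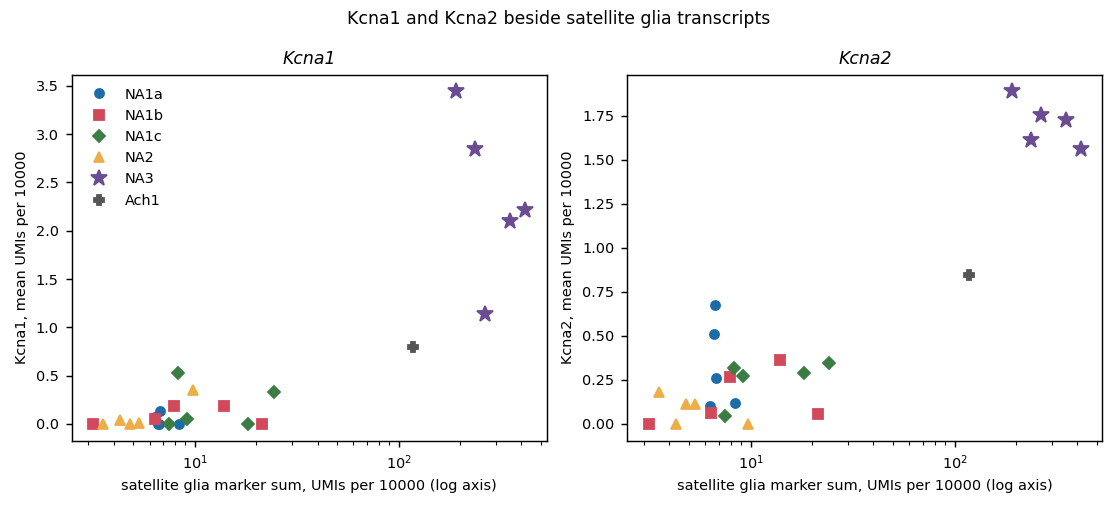
Kcna1 (left) and Kcna2 (right) against the summed level of 10 satellite glia markers, both in UMIs per 10000, with the x axis on a log scale. Each point is 1 subtype in 1 mouse with at least 10 neurons (5 for NA3). The NA3 points lie at the right, at sums of 191 to 416, the Ach1 point of mouse 4 lies between, at 0.800 for Kcna1 and 0.845 for Kcna2, and the other points lie at sums under 25.

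Kcnc1 encodes Kv3.1 and Kcnc4 Kv3.4, a fast inactivating Kv3 subunit. Kcnc4 was the member detected in the most neurons of each of the noradrenergic subtypes other than NA3. Its level was 0.706 to 1.02 in the 5 mice of NA1a (median 0.852), 0.704 to 2.79 in NA1b (median 1.28), 1.17 to 1.86 in NA1c (median 1.41) and 0.666 to 1.61 in NA2 (median 1.04). In NA3 it was 1.23, 0.246 and 0.853 in mice 2, 4 and 5. NA1c lay above NA1a without overlap, but the log2 difference of 0.70 ± 0.293 did not pass (limma, adjusted p = 0.162), and the other subtypes overlapped.

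Averages of Kcnc4 were 0.881 ± 0.133 UMIs per 10000 in NA1a, 1.47 ± 0.781 in NA1b, 1.5 ± 0.282 in NA1c, 1.13 ± 0.390 in NA2 (SD, n = 5 each) and 0.776 ± 0.496 in NA3 (n = 3). Without the shared barcodes NA2 was at 1.52 ± 0.724 (n = 4). The F test over the 5 subtypes did not pass (adjusted p = 0.0642). The 1 pair that passed was NA3 against NA1c, at -0.91 ± 0.349 (adjusted p = 0.0475), lower in 3 of 3 mice. Without mouse 4 it was -0.36 (adjusted p = 0.536), and it was not past the threshold under 10 of the 17 alternatives. The single Ach1 value (mouse 4, 55 neurons) was 2.84, and the 2 Ach2 values were 0.331 and 1.22 (0.430 and 0.859 without the shared barcodes). The 37 Glut neurons averaged 2.68, with a UMI in 56.8% of them (39.5 to 72.9%), and the 17 in matched libraries averaged 1.72, or 2.09 without the 3 with shared barcodes.

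Kcnc1 averaged 0.108 ± 0.0659 UMIs per 10000 in NA1a, 0.208 ± 0.163 in NA1b and 0.173 ± 0.187 in NA1c, and 0.00265 ± 0.00594 in NA2, where 1 of 5 mice had a UMI (SD, n = 5 each). It was 0 in all 3 mice of NA3. Over all neurons it was detected in 11.3% of NA1b (7.97 to 15.3%), 7.28% of NA1a, 3.35% of NA1c, 1.14% of NA2 (0.139 to 4.07%) and 3.03% of NA3 (0.629 to 8.6%). Kcnc1 did not pass the filter. Without the filter, over 16854 genes, it was lower in NA2 than in NA1b by -1.39 ± 0.418 (limma, adjusted p = 0.0174). In NA2 it had 1 UMI in the 95 matched neurons with unshared barcodes and none in the 55 with shared ones. In Ach2 it was detected in 17.7% of 62 neurons (9.20 to 29.5%), and in 25.8% of the 31 matched Ach2 neurons with unshared barcodes against none of the 15 with shared ones.

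Kcnd2 encodes Kv4.2 and Kcnd3 Kv4.3. Kcnd2 was at 0.0668 ± 0.0639 UMIs per 10000 in NA1a, 0.178 ± 0.126 in NA1b, 0.102 ± 0.0325 in NA1c, 0.222 ± 0.164 in NA2 and 0.0487 ± 0.0630 in NA3, and Kcnd3 averaged at most 0.0741 in any of these. Without the shared barcodes Kcnd2 in NA2 was at 0.112 ± 0.211 and Kcnd3 at 0.106 ± 0.13, on 2 UMIs (n = 4 each). For Kcnd2 the mice of each subtype overlapped those of every other. For Kcnd3 the NA3 values (0, 0 and 0.0252, on 1 UMI) lay below those of NA1a (0.0297 to 0.135), and all other pairs overlapped. Neither gene passed the filter, and without it neither passed the F test (adjusted p = 0.374 and 0.669). Detection ranged from 3.77% of NA1c to 6.75% of NA1b for Kcnd2 among the noradrenergic subtypes, and from 0.837% of NA1c to 5.38% of NA1a for Kcnd3. Neither was seen in the 64 Ach1 neurons. A count of 0 allows up to 4.69% of them with a UMI by a limit of 3 counts, and the upper Clopper-Pearson limit is 5.60%. In the 37 Glut neurons Kcnd3 was found in 10.8% (3.03 to 25.4%), on 6 UMIs. All 6 were in mouse 5, and none was in a neuron with a shared barcode. Whether differences between subtypes of the size seen for Kcnd2 and Kcnd3 could be detected at this depth was not tested.

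Kcnh2 was at 0.125 to 0.360 UMIs per 10000 in the mice of NA1a, 0.0552 to 0.413 in NA1b, 0.0352 to 0.600 in NA1c, 0.132 to 0.611 in NA2 and 0.152 to 0.760 in NA3. The ranges overlapped in every pair, and the range of NA2 was 0.0507 to 0.624 without the shared barcodes. The F test gave an adjusted p of 0.540, and the largest log2 difference, NA3 minus NA1b, was 0.74 ± 0.501 (limma, adjusted p = 0.287). Over all neurons Kcnh2 was detected in 21.2% of NA3 (13.6 to 30.6%) and 8.68% of NA1b (5.80 to 12.4%), at medians of 6773 and 3252 UMIs per neuron.

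Kcnab2, the auxiliary Kvβ2 subunit, did not share the NA3 pattern of the Kv1 subunits that it binds. It was at 0.317, 0 and 0.348 in NA3 (mice 2, 4 and 5), and at 0.495, 0.842, 0.952, 1.21 and 0.414 in NA1c (mice 1 to 5). NA2 had 0.543, 0.868, 0.535, 0.485 and 0.527. All NA3 values lay below all values of NA1c and NA2, while NA1a (0.307 to 0.476) and NA1b (0.129 to 0.616) overlapped NA3. The 37 Glut neurons averaged 0.977, with a UMI in 35.1% of them (20.2 to 52.5%). The 17 Glut neurons in matched libraries averaged 1.12, or 1.36 without the 3 with shared barcodes.

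The mean of Kcnab2 was 0.222 ± 0.193 UMIs per 10000 in NA3 (SD, n = 3). NA1a averaged 0.374 ± 0.0727, NA1b 0.361 ± 0.196, NA1c 0.783 ± 0.330 and NA2 0.592 ± 0.156 (n = 5 each). NA3 was lower than NA1c by a log2 difference of -1.68 ± 0.461 (limma, adjusted p = 0.00570) and than NA2 by -1.39 ± 0.461 (adjusted p = 0.0151), in 3 of 3 mice. Without mouse 4, whose 14 NA3 neurons had no UMI of the gene, the differences were -0.84 (adjusted p = 0.251) and -0.76 (adjusted p = 0.274), and neither passed with neurons thinned to 2000 UMIs. Shared barcodes bore on its NA2 level. The 95 matched NA2 neurons with unshared barcodes held 35 UMIs of Kcnab2 and the 55 with shared ones held 1. Without the latter NA2 was at 0.882 ± 0.394 (n = 4), and it was then higher than NA1a by 1.06 ± 0.427 (adjusted p = 0.0450) and than NA1b by 1.20 ± 0.427 (adjusted p = 0.0191).

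Over the 5 noradrenergic subtypes, 5 of the 8 members passed the filter on low levels (Kcna1, Kcna2, Kcnab2, Kcnc4 and Kcnh2), and 3 of these, Kcna1, Kcna2 and Kcnab2, passed the F test, in which 67.9% of all tested genes passed. Without NA3 2 members could be tested and Kcnab2 passed, beside 66.5% of genes. Kcna1 and Kcna2 met the filter, of at least 0.5 UMIs per 10000 in 3 profiles, through NA3: outside NA3 the profiles at that level were 1 and 2. With no filter both still passed the F test (adjusted p = 0.000116 and 0.000969). In single pairs, NA3 was higher for Kcna1 and Kcna2, and among all genes 7.29% were higher in NA3 than in NA1a, 9.02% than in NA1b, 11.1% than in NA1c and 21.9% than in NA2. For the lower calls the shares of all genes were 15.7% (NA3 against NA1c), 17.3% (NA3 against NA2), 32% (NA2 against NA1a) and 36.5% (NA2 against NA1c). No member passed between NA1a, NA1b and NA1c, where 1.47% of genes were higher and 2.67% lower in NA1b than in NA1a, 1.75% and 3.93% in NA1c than in NA1a, and 1.07% and 0.469% in NA1c than in NA1b. The median log2 difference over all genes was -0.25 for NA3 minus NA1a and -0.23 for NA2 minus NA1a. In profiles centred on the median gene, NA3 minus NA1a was 4.58 for Kcna1 and 2.15 for Kcna2.

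Of 28 other Kv pore-forming genes 26 were in the table, 5 passed the filter and all 5 passed the F test, beside 67.9% of all genes. Kcna6, which encodes Kv1.6, another Kv1 subunit, was at 1.78 to 1.91 UMIs per 10000 in the 3 mice of NA3, while the highest mouse reached 0.308 for NA1a, 0.509 for NA1b, 0.794 for NA1c and 0.449 for NA2. It was higher in NA3 in all 4 pairs, by 2.04 to 2.99 on the log2 scale, and the pair with NA1c did not pass with the lower-glia NA3 neurons (1.3, adjusted p = 0.0646), nor that with NA2 after thinning (2.18, adjusted p = 0.0757). It met the filter only with its NA3 profiles counted, and with no filter all 4 pairs passed (largest adjusted p = 0.00377). Kcnh8, an ELK channel, was at 0.451 to 0.885 in NA3 and 0.0306 to 0.121 in NA1a, and it was higher in NA3 than in NA1a by 2.13 ± 0.491 (limma, adjusted p = 0.00141). Its NA1b mice, at 0.0257 to 0.666, overlapped those of NA3, and that pair did not pass (1.16, adjusted p = 0.0811). Kcnh8 met the filter only with its NA3 profiles counted, so its entry to the test depended on the subtype in which it was high. Its call against NA1a held under 12 of 13 alternatives and was lost under 1 (limma, largest adjusted p = 0.0856).

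Kcnh7, an ERG channel like Kcnh2, was at 2.06 ± 0.502 in NA1b (n = 5) and 0.977 ± 0.662 in NA3 (n = 3), lower in NA3 by -1.44 ± 0.394 (limma, adjusted p = 0.00606), and by -0.96 without mouse 2 (adjusted p = 0.0871). Against NA1a, 2 of the 5 were higher in NA3 and 1 lower, beside 7.29% and 11.8% of all genes. The 2 were Kcna6 and Kcnh8, which met the filter only with their NA3 profiles counted. In NA2 3 of the 5 were lower than in NA1a, as were 32% of all genes, and none was higher (1 of 5 in profiles centred on the median gene, and 16.6% of all genes). The count of lower genes was the same without the shared barcodes, where 6 could be tested.

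Of 15 other auxiliary subunit genes 13 were in the table and 2 were tested. Dpp6, a partner of Kv4 channels, was at 1.64 ± 0.322 UMIs per 10000 in NA1a, 2.26 ± 0.449 in NA1b (n = 5 each) and 0.895 ± 0.517 in NA3 (n = 3), lower in NA3 than in NA1a by -1.01 ± 0.297 (limma, adjusted p = 0.0132). Kcnip4, which encodes a calcium-binding partner of Kv4, was at 1.62 ± 0.301 in NA1b and 0.761 ± 0.278 in NA3, lower by -1.14 ± 0.306 (adjusted p = 0.00523). Without mouse 2 these differences were -0.60 (adjusted p = 0.241) and -0.91 (adjusted p = 0.0770). Both of these Kv4 partners were measured at levels that allowed a test, while Kcnd2 and Kcnd3 were not.

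10 genes of proteins that place Kv1 channels along the axon or at synapses were all in the table, and 8 were tested and passed the F test, which 67.9% of all genes passed. Lgi1, a secreted ligand of the Adam22 and Adam23 receptors, was higher in NA3 than in NA1a, at 0.578 to 0.759 against 0.0720 to 0.373 UMIs per 10000, by 1.73 ± 0.443 (limma, adjusted p = 0.00427). It met the filter through its 3 NA3 profiles alone, and with no filter the adjusted p was 0.0101. Cntnap2, which encodes the Kv1-anchoring protein Caspr2, was lower, at 0.168 to 0.649 against 0.744 to 1.69, by -1.27 ± 0.420 (adjusted p = 0.0288). These were the 2 calls of the 8 against NA1a, with a list median of -0.46. Of all genes 7.29% were higher and 11.8% lower in this pair. Without mouse 4 neither passed (adjusted p = 0.0713 for Lgi1 and 0.235 for Cntnap2). Against NA1b, Dlg1 and Lgi1 were higher in NA3, beside 9.02% of all genes, and Dlg4, Dlg2 and Epb41l3 lower, beside 13.6%. The call of Lgi1 was lost under 8 of 13 alternatives, that of Dlg2 under 9 of 16, that of Dlg1 under 5 of 16 and that of Dlg4 under 3 of 16. Lgi1 could not be tested with the lower-glia NA3 neurons. In NA2 7 of the 8 were lower than in NA1a, beside 32% of all genes, and 4 of 8 were lower without the shared barcodes.

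The genes whose levels over the 23 profiles of subtype and mouse were most like those of Kcna1 were Pdlim4 (Pearson's r = 0.942), Serpinh1 (0.913) and Aspa (0.912). For Kcna2 they included H2-Q4 (0.864) and Pdzd2 (0.855). For Kcnc4 they were Actr1a (0.817), Tbcd (0.809) and Rangap1 (0.780), for Kcnab2 Rnf208 (0.778), Cops3 (0.758) and Gnaz (0.743), and for Kcnh2 Rnf146 (0.691), Smarcb1 (0.630) and Gtf2b (0.624). These values describe profiles that share mice and libraries and carry no test.

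The study compared neurons by their level of neuropeptide Y (Npy), a cotransmitter of sympathetic neurons, in the cardiac subtypes, which were NA1a, NA1b and NA3. The low stratum held neurons under 5.58 UMIs per 10000 of Npy and the high stratum those over 45.8, the bottom and top 30%. NA1a made up 89% of the high stratum and NA1b 74.3% of the low one, with 16.1% NA3, so subtype and stratum were entangled. 3 members could be tested (Kcna1, Kcna2 and Kcnc4), and none passed in the limma fit, in which 9.66% of 4534 genes did. At an unadjusted p below 0.05 the count was 1. With no filter none of 8 passed.

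Kcna1 had the smallest p. Its mean was 0.109 ± 0.0805 UMIs per 10000 in the high and 0.454 ± 0.341 in the low stratum (SD, n = 5), a log2 difference of -1.28 ± 0.478 (adjusted p = 0.0894) with the high stratum lower in 5 of 5 mice. The medium stratum, which held 56 of the NA3 neurons, was at 0.916 ± 0.912. The low strata held between 2 and 14 NA3 neurons a mouse and the high strata between 0 and 4, and the satellite glia sum was 42.4 to 84.6 in the low and 7.83 to 59.8 in the high stratum. With the subtype as a term the difference was 0.64 ± 0.787 (adjusted p = 0.879), and without mouse 4 it was -1.56 (adjusted p = 0.0375). Kcnc4 was at 0.794 ± 0.158 in the high and 1.17 ± 0.346 in the low stratum, lower in 5 of 5 mice, at -0.47 ± 0.254 (adjusted p = 0.284). Kcna2 was at 0.322 ± 0.231 and 0.403 ± 0.233 (adjusted p = 0.711).

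**Figure D4:**
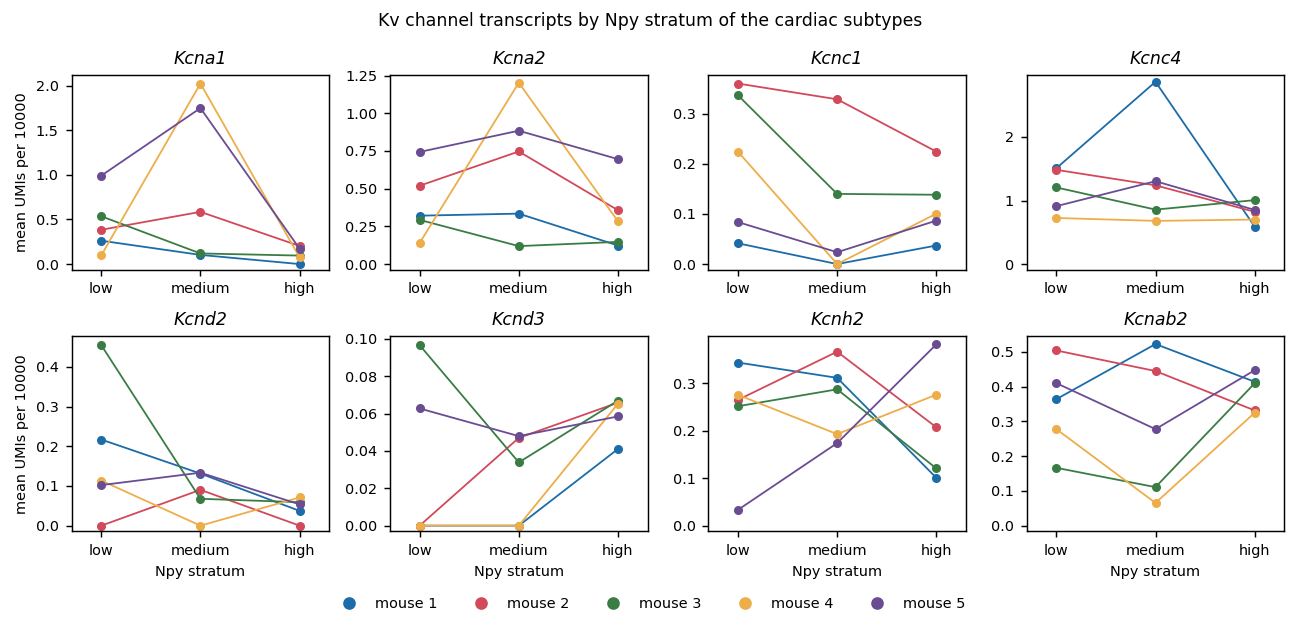
Mean level (UMIs per 10000) of the 8 members in the low, medium and high Npy strata of NA1a, NA1b and NA3 neurons. Each line is a mouse, and each panel has its own axis from 0. Kcna1 and Kcnc4 are lower in the high than in the low stratum in 5 of 5 mice, and neither difference passed the adjusted threshold.

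Within NA1a alone, where the strata were set inside each mouse, Kcnc4 was the 1 member tested. It was at 0.635 ± 0.335 in the high and 1.14 ± 0.207 in the low stratum (SD, n = 5), a log2 difference of -0.87 ± 0.359 (limma, adjusted p = 0.271), lower in 4 of 5 mice, and 0.286% of 4550 genes passed. Within NA1b neither Kcnc4 (adjusted p = 0.793) nor Kcnab2 (adjusted p = 0.837) passed, and 0.021% of 4773 genes did. Kcnh2, which was too low to be tested there, was at 0.306 ± 0.187 in the high and 0.219 ± 0.151 in the low stratum. It was higher in each of the 5 mice, on 1 or 2 UMIs a mouse in the high and 1 to 4 in the low stratum. The medium stratum was below both, at 0.132 ± 0.154. Median depth was 1902 to 4868 UMIs per neuron in the high strata and 2632 to 8485 in the low ones. An exact permutation of signs, high against low, gave a two-sided p of 0.0625, the smallest possible with 5 mice. This was the lowest such p among the 8 members. At an unadjusted p below 0.05 the counts were 1 in NA1a and 0 in NA1b.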

How the data were processed

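Stellate ganglion cells of 8 mice were sequenced with the 10x Genomics system. Cell Ranger 2.1.1, mm10, Seurat and Scanpy are named in the submitters' processing notes. The authors kept cells with over 500 and under 6000 genes, under 20000 UMIs and under 15% mitochondrial RNA, and deposited, for those classed as neurons, natural log values of UMIs per 10000 plus 1 from Seurat. No doublet removal is stated, and none was applied. 88% of the values were 0, and dividing the others by each neuron's smallest step gave whole UMIs in 100% of cases (tolerance 0.01).

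Values were averaged per mouse and subtype as UMIs per 10000. Genes at 0.5 or more in at least 3 profiles (5 for the Npy strata) were fitted as log2 of the mean plus 0.1 with limma 3.58.1 (R 4.3.3), with the mouse as a block, and called at a Benjamini-Hochberg adjusted p under 0.05, two-sided. The smallest group of the subtype fit is NA3, with 3 profiles, so genes high in NA3 alone can enter. Fold changes on this scale understate those of low genes, and p-values measure the spread between mice. The alternatives changed the pseudocount, filter, block, weighting, scaling, depth, neurons per profile, mice and barcodes. Profiles of 1 mouse come from 1 sample. Their residuals correlated at 0.0712 on average (42 pairs), against -0.018 for other pairs (168). Exact sign-flip tests over 3 mice cannot give p below 0.25. On simulated data for NA3 minus NA1a (6185 genes, 200 changed), 82.1% of log2 changes of 2 and 19.1% of changes of 1 were recovered, and 5.38% of calls were false. Whether these rates hold for sparse genes with many levels at 0, such as the members, was not tested.

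Named genes were the 8 members, from 3 lists (other Kv pore-forming, auxiliary and placement genes) those passing the F test, at most 8 a list, and for each tested member the 3 genes most correlated with it. A few genes of these lists are not reported here by name. Members, lists and markers were chosen with earlier results of these data known. Python 3.11.15, NumPy 2.4.6, pandas 2.3.3, SciPy 1.17.1 and matplotlib 3.10.9 were used.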

Additional observations from a re-analysis of the deposited data

Results flagged for a closer look

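In 4 of the 32 groups of 5 mice that were checked, 1 mouse stood apart from the other 4 by Dixon's test. Its rate of about 1 in 20 groups by chance is for normally distributed values and cannot be applied to these sparse ones. A group with 4 mice at 0 and 1 above 0, such as Kcnc1 in NA2, is always flagged. Kcna1 in NA2 was at 0.353 UMIs per 10000 in mouse 2, on 1 UMI in 14 neurons, against 0 to 0.0424 in the others. Kcna2 in NA1c was at 0.0478 in mouse 4, on 1 UMI, against 0.274 to 0.344. Kcnab2 in NA2 was at 0.868 in mouse 2, on 5 UMIs in 14 neurons, against 0.485 to 0.543. Kcnc1 in NA2 was at 0.0133 in mouse 3, on 1 UMI, against 0 in the others.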

How the results depend on the processing

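The calls of Kcna1 and Kcna2 in NA3 against each of the other 4 noradrenergic subtypes kept their direction and passed under all 17 alternatives run for each (16 other fits, and adjustment over genes and pairs together), at log2 differences of 1.15 to 4.99 for Kcna1 and 0.82 to 3.47 for Kcna2, the lowest with averaged natural log values. The alternatives without shared barcodes, without NA3 and with lower-glia NA3 neurons were chosen after seeing the data. Calls over members and pairs numbered 13, and 8 with neurons thinned to 2000 UMIs, which leaves shallower neurons out. Without NA3, 1 member (Kcnab2) passed the F test in place of 3, since 2 members could then be tested. Without the replicate block, that is without pairing by mouse, 4 members passed the F test, 13 pair calls were made and 4131 in place of 4197 genes differed, and no member passed between Npy strata. Leaving out 1 mouse in turn gave 2 to 4 members by the F test, 10 to 14 pair calls and 3775 to 4019 genes, and 0 to 1 members between Npy strata. The 1 was Kcna1, without mouse 4, and the cause was not tested. Thinned to 2000 UMIs, the mean shares of neurons with a UMI were 28.7% for Kcna1 and 32.4% for Kcna2 in NA3 and, in NA1a, 6.97% for Kcnab2, 1.60% for Kcnc1, 16.4% for Kcnc4, 0.909% for Kcnd2, 0.400% for Kcnd3 and 3.14% for Kcnh2. Among the Npy differences, none of which passed, signs turned for Kcnc4 when thinned (0.072, and 0.44 within NA1b) and with summed UMIs within NA1b (0.16), for Kcna2 with averaged natural log values (0.002), for Kcna1 with the subtype as a term (0.64) and for Kcnab2 within NA1b without mouse 5 (0.103, against -0.845 to 0.103 over the mice left out). Low UMI totals limit Kcnc1, Kcnd2 and Kcnd3, which could be tested with no filter only.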
